A study of Mus musculus with 26 samples.

Results

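The genes described here encode the nuclear subunits of the mitochondrial respiratory chain and of the ATP synthase. They were taken by symbol, from probe sets that the platform annotation assigns to a single gene whose symbol begins with Nduf, Sdh, Uqcr or Atp5, or with Cox and a digit from 4 to 8, together with Cyc1. The array carried 102 such probe sets for 74 genes. Of these genes, 69 had a probe set that passed the filter on low signal, out of 5564 genes tested in all. Cox5a, Cox8a, Atp5j2, Ndufc2 and Ndufa12 did not pass it and have no values here. The 69 genes comprise 27 of complex I, 4 of complex II, 8 of complex III, 13 of complex IV, 13 of complex V, and 4 assembly factors that share a prefix (Ndufaf1, Ndufaf4, Sdhaf1 and Sdhaf2), which are kept apart from the complexes.

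Total RNA of mouse heart was hybridised to 26 Affymetrix MG_U74Av2 arrays after transverse aortic constriction (TAC), in which a band narrows the aortic arch and the left ventricle ejects against a raised pressure, or after sham surgery. Sham groups held 4 arrays at each of 48 h, 10 d and 3 wk, and TAC groups held 5, 4 and 5. The labels give no strain, age, sex, genotype, drug or part of the heart, and do not say whether an array is 1 animal or a pool. The p-values therefore measure only the spread between these arrays, which may be technical.

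In the respiratory chain, complexes I and II pass electrons from NADH and succinate to ubiquinone, complex III passes them to cytochrome c, and complex IV passes them to oxygen. Complexes I, III and IV pump protons across the inner membrane, and complex V, the ATP synthase, uses the return of these protons to make ATP. The beating heart depends on this supply and is among the tissues richest in mitochondria. Most subunits are encoded in the nucleus, and the few encoded in the mitochondrial genome are not among the genes measured here.

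All values are log2 of the deposited intensity, and a change is TAC minus sham on that scale. A gene was called changed when its adjusted p, from limma with Benjamini-Hochberg adjustment over all 7297 probe sets tested, was under 0.05. A level of 1 gene cannot be set against that of another on this platform, since probes differ in brightness. In RNA of heart tissue, fewer muscle cells and less of a transcript per cell cannot be told apart.

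Some libraries stand apart or share a handling step with their group, which bears on what follows. The 48 h arrays share 1 scan day. The 10 d arrays do too, except TAC replicate 4. Of the 3 wk arrays, TAC replicates 4 and 5 were read on another day than 5 others (sham replicates 2 and 3, TAC replicates 1, 2 and 3), and for sham replicates 1 and 4 no scan day is recorded. No recorded day held more than 1 duration, so the effects of the 2 cannot be told apart. Of 12 defining markers of cardiac muscle, 11 were on the array and all 11 were tested, with mean log2 intensities from 10.48 for Tcap to 17.23 for Tnni3. Atrial markers varied within groups, with a summed intensity from 79419 to 229294 in sham and from 26445 to 231050 in TAC at 3 wk, and their part in the results was not tested.

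At 3 wk the subunit genes lay lower after TAC almost throughout, while at 48 h and 10 d they lay near sham. The median change over the 69 genes was -0.02 at 48 h, -0.07 at 10 d and -0.31 at 3 wk, the last a percent change of -19.3%. Over all 5564 genes the medians were -0.01, -0.02 and -0.00. Leaving out 1 array moved the member median between -0.07 and 0.02 at 48 h, between -0.13 and -0.01 at 10 d and between -0.32 and -0.24 at 3 wk. At 3 wk, 65 of the 69 genes had a change below 0, or 94.2%, against 50.4% of all genes. The exceptions were Cox7a2l, Ndufa1, Ndufb3 and Sdhaf1. At 10 d the count below 0 was 45 (65.2%, against 52.8% of all genes), and at 48 h it was 43 (62.3%, against 52.5%).

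Few genes passed the test one by one. None of the 69 was called at 48 h, where 0% of all genes were called lower and 0.0539% higher, and 1 member, Sdhaf1, was lower at an unadjusted p under 0.05 (2.68% of all genes were). At 10 d, 1 gene was called lower, or 1.45%, against 1.99% of all genes called lower and 3.04% called higher. At 3 wk, 6 genes were called lower, or 8.7%, against 1.89% of all genes called lower and 2.93% called higher. No member was called higher at any duration. At an unadjusted p under 0.05, 10 members were lower at 10 d (14.5%, against 11.3% of all genes) and 37 at 3 wk (53.6%, against 9.4%).

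The separation of arrays was counted too. At 3 wk every TAC array lay below every sham array for 28 of the 69 genes (40.6%), against 4.51% of all genes. No member had all TAC arrays above all sham arrays, which was so for 4.4% of all genes. At 10 d the count below was 4 (Cox6b1, Ndufb11, Ndufs1 and Sdha), or 5.8%, a share under the 8.09% of all genes, and none lay above, against 7.93%. At 48 h it was 1 (Sdhaf1), or 1.45%, against 1.26%, and none lay above, against 1.22%.

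**Figure D1:**
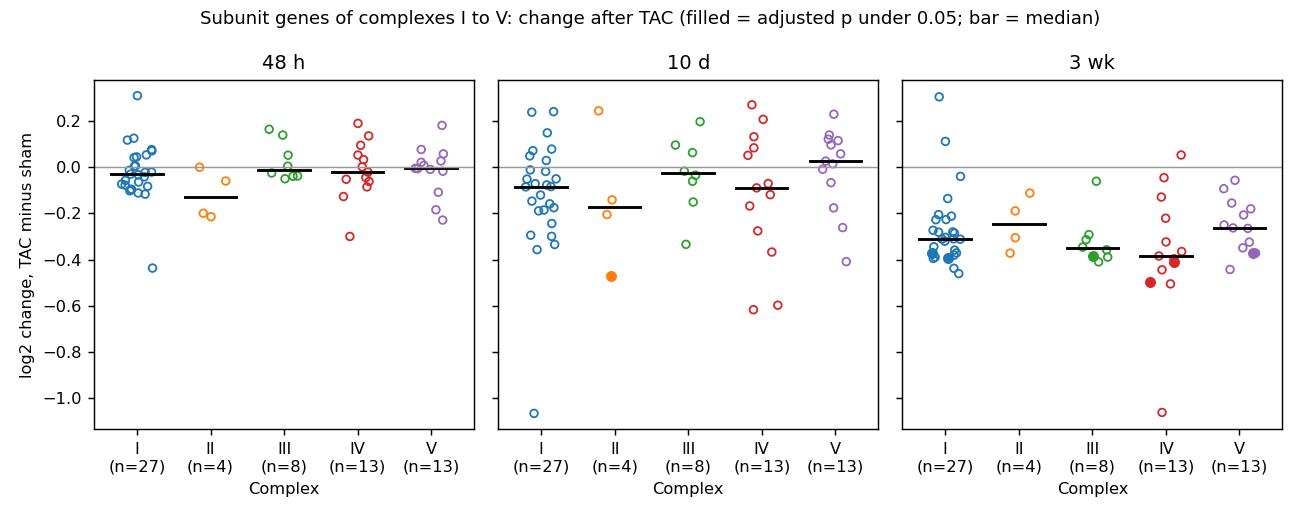
Log2 change (TAC minus sham, vertical axis) of each tested subunit gene in complexes I to V at 48 h, 10 d and 3 wk, with 1 point per gene, filled where the adjusted p was under 0.05 and with a bar at the median; the 4 assembly factors are not drawn. At 3 wk the points of every complex lie mostly below 0, with medians from -0.38 to -0.25.

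The difference between durations was tested itself, and no member passed. Neither the change at 10 d minus that at 48 h (0.108% of all genes called), nor 3 wk minus 10 d (0.018%), nor 3 wk minus 48 h (0%) was called for any of the 69 genes. At an unadjusted p under 0.05, 1 member was lower and 0 were higher for 10 d minus 48 h. Of all 5564 genes, 296 were lower and 308 higher there. For 3 wk minus 10 d, 17 members were lower and 0 higher, against 229 and 236 of all genes. For 3 wk minus 48 h, 15 members were lower and 1 higher, against 293 and 355. These differences share arrays with one another. An order of the durations in single genes was thus not shown.

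Array by array, the median over the members relative to the mean of their own sham group lay between -0.05 and 0.03 in the 3 wk sham arrays. In the 5 TAC arrays at 3 wk it was -0.20, -0.22, -0.29, -0.49 and -0.22 for replicates 1 to 5, all below the lowest sham array. TAC replicate 4 was the lowest and held the lowest TAC value for 43 of the 69 genes. At 10 d the TAC arrays ranged from -0.32 to 0.08 and the sham arrays from -0.15 to 0.10, so the groups overlapped. In single 10 d sham arrays, from 10 to 59 of the 69 genes lay below their own sham mean. The genes thus moved together by array, and counts of genes are not separate observations. At 48 h the TAC arrays ranged from -0.18 to 0.15 and the sham arrays from -0.11 to 0.07, which also overlapped.

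**Figure D2:**
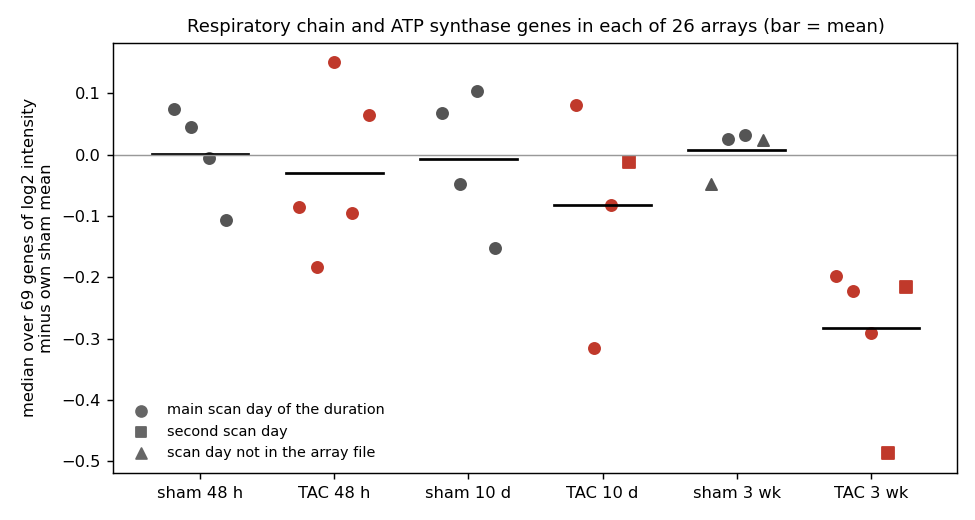
Median over 69 genes of log2 intensity minus the gene's own sham mean (vertical axis) in each of the 26 arrays, by group, with scan day by symbol and the group mean as a bar. The 5 TAC arrays at 3 wk lie from -0.49 to -0.20, below the 4 sham arrays of that duration, whereas the groups overlap at 48 h and 10 d.

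The 3 wk shift was seen with and without the arrays in doubt, but its calls were not. On the main scan day alone (2 sham and 3 TAC arrays), the median over members was -0.25 and 66 of 69 genes lay below 0. There 16 members were lower at an unadjusted p under 0.05 and none was called, with 0.126% of all genes called lower. Without TAC replicate 4 the median was -0.24 and 0 members were called (0.791% of all genes called lower). Without sham replicate 3 the count was also 0 (1.08%). When arrays were centred on their medians, 60 of 69 genes lay below 0, the member median was -0.25 and that of all genes 0.06, and 0 members were called; over all genes, calls then split into 63 lower and 234 higher, against 105 and 163 without centring.

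Other values moved with the 3 wk shift. The ratio of 3′ to 5′ signal of Gapdh, a sign of RNA quality, was 1.01 ± 0.0929 (SD, n = 4) in sham and 0.919 ± 0.0655 (SD, n = 5) in TAC at 3 wk, with overlapping ranges. TAC replicate 4, the lowest array for the subunit genes, had the lowest of these ratios, 0.842. The ratio of Actb was 1.01 ± 0.103 (SD, n = 4) in sham and 0.979 ± 0.187 (SD, n = 5) in TAC. Among the 3 wk arrays it was highest in TAC replicate 4, at 1.16, where that of Gapdh was lowest. The part of RNA quality in the result was not tested. The 11 cardiac muscle markers tested had a median change of -0.33 at 3 wk, with 0 called, and a summed intensity from 1028446 to 1254660 in sham and from 873783 to 1001342 in TAC, so these ranges did not overlap. Of 9 fibroblast markers, 7 were called higher at 3 wk and 6 at 10 d. Of 9 macrophage and monocyte markers, 4 were called higher at 3 wk and 8 at 10 d. Of 7 endothelial markers, 1 was called higher at 3 wk and 4 at 10 d. The shares of all genes called higher were 2.93% at 3 wk and 3.04% at 10 d. The summed fibroblast intensity ran from 142694 to 187820 in sham and from 193082 to 315841 in TAC at 3 wk. The summed macrophage intensity ran from 40992 to 45640 in sham and from 47253 to 65210 in TAC, and the endothelial one from 26008 to 31753 and from 33684 to 38968. The part of cell makeup in the subunit result was not tested.

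Probe brightness also moved with the shift. Of the members, 24 had a mean log2 intensity over 16, with a median change of -0.32 at 3 wk, and the 49 other genes that bright had -0.24. Between 15 and 16, the medians were -0.31 for 20 members and -0.07 for 107 other genes. Between 12 and 14 they were -0.15 for 11 members and 0.03 for 1394 other genes. Between 14 and 15 they were -0.17 for 6 members and -0.01 for 206 other genes, between 10 and 12 they were -0.25 for 5 members and 0.01 for 2640, and under 10 they were -0.37 for 3 members and -0.07 for 1099. The members' median was the lower one in every band, and the 2 medians were closest in the brightest. The part of scanner range in the result was not tested.

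**Figure D3:**
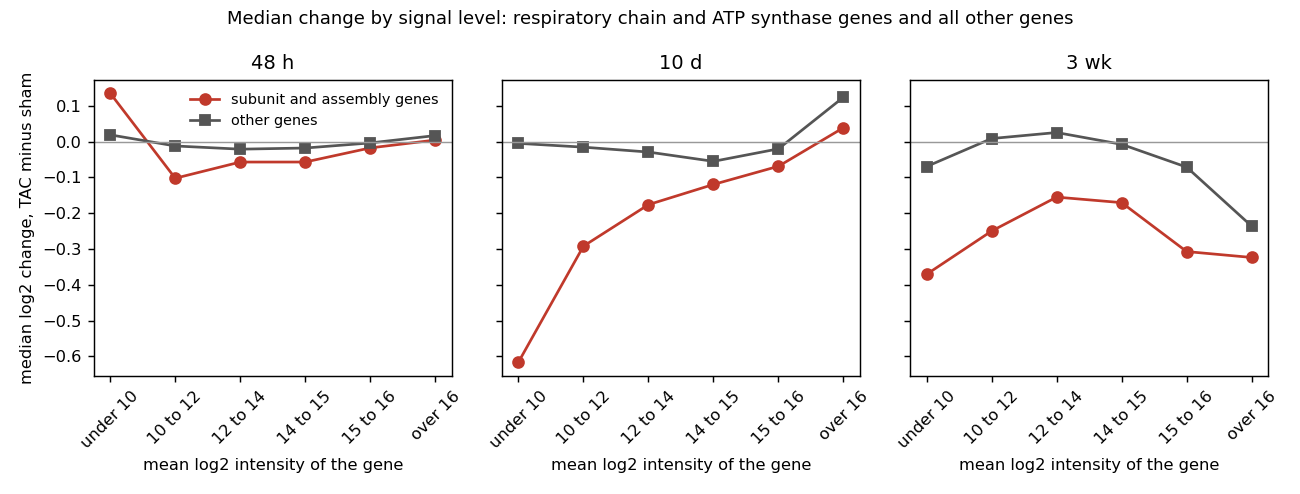
Median log2 change (TAC minus sham) of the subunit and assembly genes and of all other genes, grouped by mean log2 intensity, at the 3 durations. At 3 wk the medians over 16 are -0.32 and -0.24, and those from 15 to 16 are -0.31 and -0.07; the member groups under 12 hold only 3 and 5 genes.

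Many respiratory genes carry binding motifs of shared nuclear factors near their start, so the promoters of 3 of the called genes are shown. RefSeq promoters on GRCm38 were found for 55 of the 69 genes, as 60 windows of 300 bases. The NRF-1 core GCGCATGC, searched on both strands, was in 16.7% of these windows and in 2.71% of all 32851 windows. The ETS core CCGGAAG, bound by GABP, was in 28.3% and 8.86%, the YY1 core AAGATGG in 11.7% and 6.34%, and the ERR half-site AAGGTCA in 8.33% and 4.72%. The windows of members were richer in G and C, with a median of 59% against 52.7%. For the genes without overlap at 3 wk, 21 windows of 20 genes were found. They held the NRF-1 core in 4 (19%), the ETS core in 6 (28.6%), the YY1 core in 1 (4.76%) and the ERR half-site in 2 (9.52%). The 39 windows of the other members held them in 6 (15.4%), 11 (28.2%), 6 (15.4%) and 3 (7.69%), in the same order. A match describes letters and not a bound site. Of the 6 called genes with a promoter, only Ndufa6 had a match in the 120 bases read before the start. Windows of these genes on a further chromosome, if any, were left out of this reading.

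The 120 bases before the start are given 5′ to 3′ on the gene's strand for one called gene with a match and for 2 without, so that the muscle isoform Cox7a1 can be read beside ubiquitous subunits. Capitals mark the NRF-1 core, which Ndufa6 holds on the opposite strand; the other 3 motifs were not in these stretches.
Ndufa6, GRCm38 chr15:82354292-82354411, minus strand: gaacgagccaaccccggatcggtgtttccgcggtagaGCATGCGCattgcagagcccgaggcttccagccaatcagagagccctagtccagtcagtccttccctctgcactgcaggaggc
Cox5b, GRCm38 chr1:36691367-36691486, plus strand: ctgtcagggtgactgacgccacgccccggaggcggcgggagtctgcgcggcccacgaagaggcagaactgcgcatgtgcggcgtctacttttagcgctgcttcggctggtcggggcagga
Cox7a1, GRCm38 chr7:30184051-30184170, plus strand: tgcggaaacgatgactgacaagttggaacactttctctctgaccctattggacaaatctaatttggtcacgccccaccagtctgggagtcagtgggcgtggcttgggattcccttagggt

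Complex I is the entry point for NADH electrons. Its 27 tested genes had a median change of -0.03 at 48 h, -0.08 at 10 d and -0.31 at 3 wk, with 25 of 27 below 0 and 10 of 27 without overlap at 3 wk. Of all genes at 3 wk, 50.4% lay below 0 and 4.51% had every TAC array below every sham array. These shares also apply to the complexes that follow. Ndufa6 and Ndufab1 were called lower at 3 wk. Ndufab1 is the mitochondrial acyl carrier protein, a subunit of complex I that also serves mitochondrial fatty acid synthesis. Its log2 intensity was 16.26, 16.37, 16.42 and 16.34 in the sham arrays and 16.20, 16.10, 15.96, 15.63 and 16.00 in the TAC arrays. All TAC arrays lay below all sham arrays, and the change was -0.37 (SE 0.11, limma adjusted p = 0.0442). Ndufa6, an accessory subunit of the LYR protein family, read 14.11, 14.54, 14.35 and 14.41 in sham and 13.99, 14.13, 14.03, 13.71 and 13.93 in TAC. Here TAC replicate 2 lay just above sham replicate 1, so the groups overlapped, and the change was -0.39 (SE 0.11, limma adjusted p = 0.0299). Leaving out 1 array ended the call of Ndufab1 in 7 of 9 cases (all but TAC replicates 1 and 2) and that of Ndufa6 in 5 (sham replicates 2, 3 and 4, TAC replicates 4 and 5).

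Core subunits of complex I that carry its flavin and iron-sulphur clusters did not pass the test. Ndufs1, the largest of these, read 15.52, 15.70, 15.74 and 15.59 in sham and 15.35, 15.42, 15.38, 15.00 and 15.48 in TAC at 3 wk. The groups did not overlap, with a change of -0.31 (limma adjusted p = 0.0548), and at 10 d they did not overlap either, with -0.30 (limma adjusted p = 0.0778). Ndufv1, which binds NADH and the flavin, had a change of -0.27 at 3 wk without overlap, and 0.01 after quantile normalization. Ndufs4, an accessory subunit needed for a stable complex, had the most negative change of all members at 48 h, -0.44, and -0.36 and -0.37 later, none of them called. The most negative change of complex I at 3 wk was that of Ndufa7, at -0.46 with overlapping groups and no call. Both genes above 0 varied widely: Ndufa1 had 0.30 at 3 wk and -1.06 at 10 d (limma adjusted p = 0.778 and 0.216), near the dim end of the array, and Ndufb3 had 0.11. Without sham replicate 3 the value for Ndufa1 was -0.11, and on the main scan day alone that for Ndufb3 was -0.26.

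Complex II, succinate dehydrogenase, is shared with the citric acid cycle and is the only complex here with no subunit encoded in mitochondrial DNA. Its median change was -0.13 at 48 h, -0.17 at 10 d and -0.25 at 3 wk over 4 genes. Sdha, the flavoprotein that oxidises succinate, was the only member called at 10 d. Its log2 intensity there was 13.69, 13.75, 13.36 and 13.58 in sham and 13.21, 13.19, 13.19 and 12.92 in TAC. The groups did not overlap, and Sdha fell by 0.47 on the log2 scale (SE 0.12, limma adjusted p = 0.0205), a percent change of -27.8%. The call was lost without TAC replicate 4, which was the lowest and was scanned on another day, and without sham replicate 1 or 2. At 3 wk Sdha read 13.31, 13.45, 13.57 and 13.38 in sham and 13.26, 13.08, 13.11, 12.86 and 13.30 in TAC, again without overlap, with a change of -0.30 (limma adjusted p = 0.113).

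The other subunits of complex II were not called. Sdhb, the iron-sulphur subunit, had 0.24 at 10 d and -0.37 at 3 wk, where the groups did not overlap. Sdhc and Sdhd, which anchor the enzyme in the membrane, had -0.11 and -0.19 at 3 wk with overlapping groups. The sham arrays of complex II also differed between durations: relative to the 48 h sham mean, its median lay from -0.32 to -0.23 in the 3 wk sham arrays, while that of complex IV lay from 0.27 to 0.44. In the 3 wk TAC arrays the median of complex II lay from -0.61 to -0.32 and that of complex IV from -0.18 to 0.19. These values also carry the scan day.

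Complex III is the cytochrome bc1 complex. Its 8 genes had a median change of -0.01 at 48 h, -0.03 at 10 d and -0.35 at 3 wk. All 8 lay below 0 at 3 wk, and for 7 of 8 the groups did not overlap. Uqcrb, a subunit near the ubiquinone site, was called. It read 16.34, 16.44, 16.42 and 16.43 in sham and 16.17, 16.00, 16.02, 15.86 and 16.07 in TAC. The sham arrays lay within a narrow range above all TAC arrays, and the change was -0.38 (SE 0.11, limma adjusted p = 0.0471). Its probe set carries a suffix that Affymetrix gives to probes shared within a sequence family, so related sequences may add to its signal. Leaving out any 1 array except TAC replicate 1 ended this call, with changes from -0.42 to -0.34.

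Of the catalytic subunits of complex III, Cyc1, the haem protein that hands electrons to cytochrome c, read 17.13, 17.04, 17.19 and 17.02 in sham and 16.90, 16.64, 16.69, 16.55 and 16.74 in TAC at 3 wk. The groups did not overlap, with a change of -0.39 and no call. The dimmer probe set of Cyc1 gave -0.15 and was not called. The core proteins Uqcrc1 and Uqcrc2 had -0.31 and -0.29 at 3 wk, both without overlap and not called. Uqcr11 had the most negative change of the complex, -0.41 (limma adjusted p = 0.0581), and Uqcrh, the hinge protein, had -0.36. Uqcr10 was the exception, with -0.06, overlapping groups, and 0.01 after quantile normalization.

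Complex IV, cytochrome c oxidase, had the most negative median at 3 wk, -0.38 over 13 genes, after -0.02 at 48 h and -0.09 at 10 d; the difference between complexes was not tested. Here 12 of 13 genes lay below 0 and 6 had no overlap. Cox5b, a subunit on the matrix side that binds zinc, read 16.11, 16.32, 16.41 and 16.24 in sham and 15.91, 16.03, 15.92, 15.55 and 15.88 in TAC. All TAC arrays lay below all sham arrays, and the change was -0.41 (SE 0.10, limma adjusted p = 0.0162). Cox7a1, the isoform found mainly in heart and skeletal muscle, read 16.01, 16.12, 16.17 and 16.07 in sham and 15.77, 15.57, 15.67, 15.24 and 15.73 in TAC. No TAC array reached the lowest sham array. Cox7a1 was lower after TAC by 0.50 on the log2 scale (SE 0.13, limma adjusted p = 0.0306), a percent change of -29.1%. All arrays at 48 h read lower still, from 14.46 to 15.09, a difference that also carries the scan day. The call of Cox5b ended without sham replicate 3 or TAC replicate 4, and that of Cox7a1 also without sham replicate 2 or 4 or TAC replicate 2.

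Several complex IV subunits exist as a muscle isoform and a ubiquitous one. The ubiquitous Cox7a2 had a change of -0.22 at 3 wk without overlap and was not called. Within arrays, the difference Cox7a1 minus Cox7a2 was lower after TAC at 3 wk by a mean of -0.27, and the 5 TAC arrays did not overlap the 4 sham arrays; at 48 h and 10 d the same values were 0.23 and -0.08, with overlap. In the sham arrays its mean was -1.49 at 48 h, -0.54 at 10 d and -0.24 at 3 wk, values that also carry the scan day. This difference was described and not tested. Cox6a2, the muscle isoform of the other pair, read 17.17, 16.81, 17.05 and 17.20 in sham and 16.93, 16.44, 16.27, 16.50 and 16.62 in TAC at 3 wk. TAC replicate 1 lay above sham replicate 2, so the groups overlapped, and the change was -0.50 with no call (limma adjusted p = 0.173). The ubiquitous Cox6a1 had -0.13, and the TAC minus sham value of Cox6a2 minus Cox6a1 was -0.38 with overlapping groups.

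Cox8b, the muscle isoform of subunit 8, had 2 tested probe sets. The brighter one gave -0.40 without overlap and was not called (limma adjusted p = 0.105), and the other gave -0.50 and was called (limma adjusted p = 0.0159). The ubiquitous Cox8a was not tested. Of the remaining subunits, Cox6c had -0.32 without overlap, and Cox4i1 and Cox6b1 had -0.36 and -0.44 with overlap, none called. The dimmer probe set of Cox4i1 gave -0.14 and was not called. Cox7a2l, which joins complexes III and IV into supercomplexes, was the only complex IV gene above 0, at 0.05, and was -0.04 on the main scan day alone. The most negative value, -1.06, belonged to Cox6b2, the testis isoform, whose probe set was the dimmest of the members and whose groups overlapped (limma adjusted p = 0.174).

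**Figure D4:**
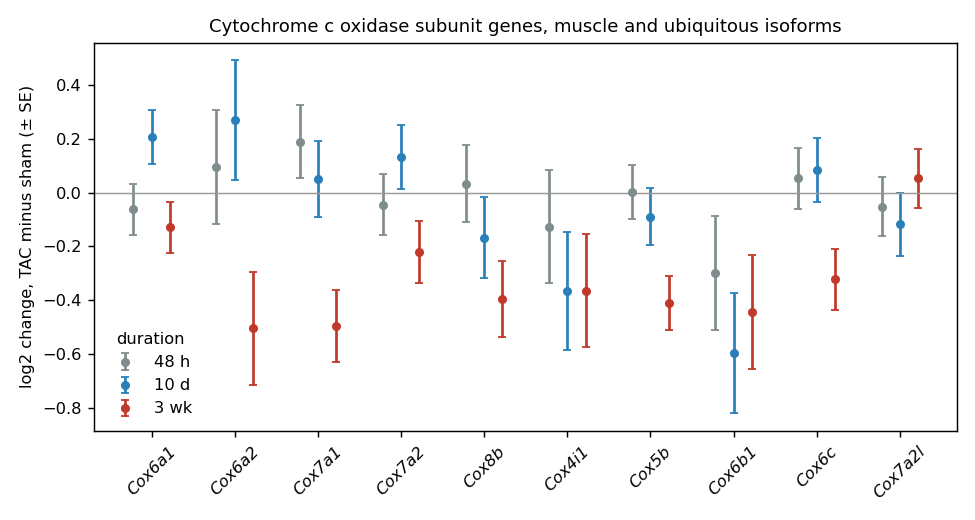
Log2 change (TAC minus sham) with its standard error for 10 cytochrome c oxidase genes at 48 h, 10 d and 3 wk. At 3 wk the muscle isoforms Cox6a2 and Cox7a1 are both at -0.50, and their ubiquitous counterparts Cox6a1 and Cox7a2 at -0.13 and -0.22.

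Complex V, the ATP synthase, had a median change of -0.01 at 48 h, 0.03 at 10 d and -0.26 at 3 wk over 13 genes, all 13 of which lay below 0 at 3 wk. For 3 of 13 the groups did not overlap. Atp5c1, the gamma subunit that forms the rotating shaft, read 16.40, 16.71, 16.69 and 16.55 in sham and 16.20, 16.36, 16.22, 16.05 and 16.25 in TAC. The groups did not overlap, and the change was -0.37 (SE 0.10, limma adjusted p = 0.0224). The call ended without sham replicate 2 or 3 or TAC replicate 4. Its other probe set gave -0.30 and was not called (limma adjusted p = 0.113). Atp5a1, the alpha subunit of the catalytic head, read 16.89, 16.72, 16.75 and 16.81 in sham and 16.53, 16.22, 16.41, 16.24 and 16.36 in TAC. It had the most negative change of the complex, -0.44, without overlap and without a call (limma adjusted p = 0.0639).

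Atp5g1 and Atp5g2 encode identical mature c subunits of the membrane ring and had -0.37 and -0.15 at 3 wk, with overlapping groups and no call. The dimmer probe set of Atp5g1, which does not represent the gene here, gave -1.13 and was not called. Atp5o, in the stalk that holds the head still, had -0.26. The smallest changes were those of Atp5mpl, at -0.06, and Atp5d, the delta subunit, at -0.09. For Atp5mpl the sign turned to 0.03 without TAC replicate 4 and to 0.04 after quantile normalization.

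**Figure D5:**
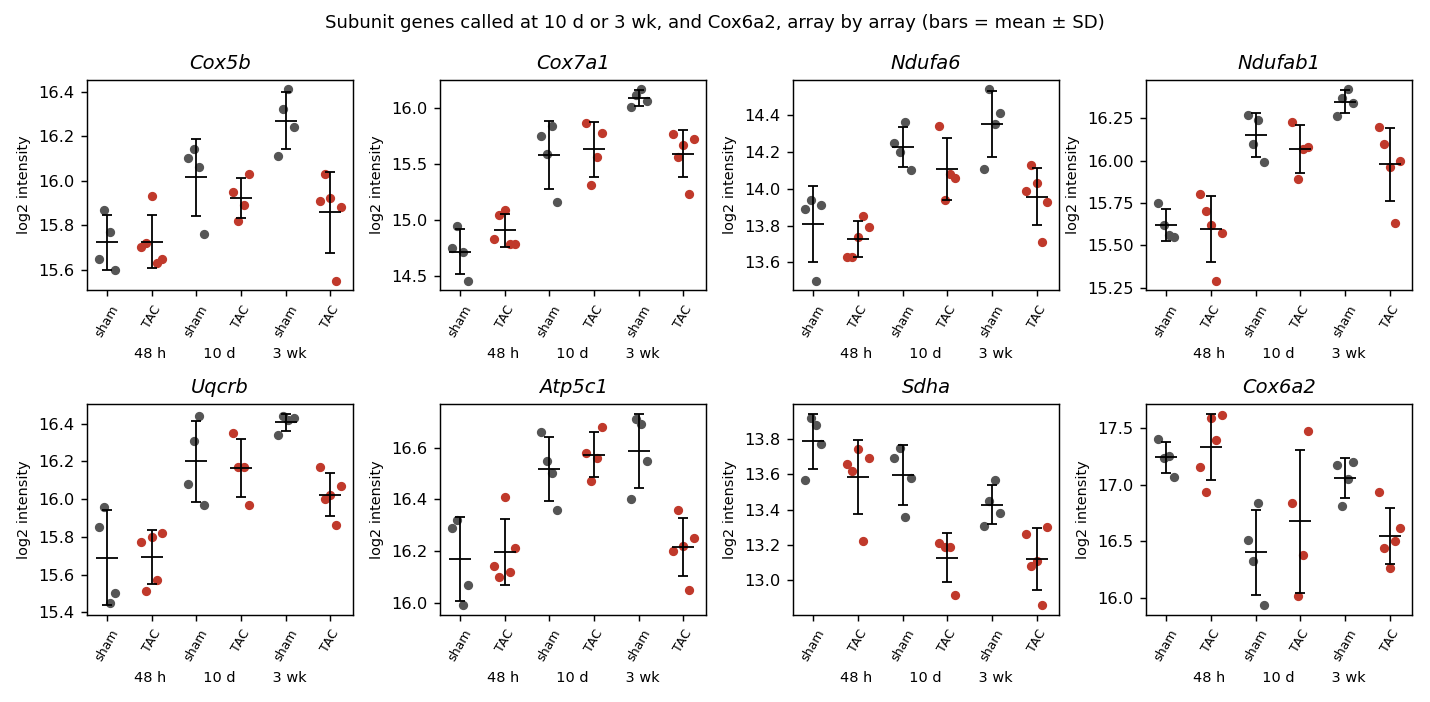
Log2 intensity in every array, with mean and SD, of the 7 genes called at 10 d or 3 wk and of Cox6a2, which was not called. In the 3 wk groups Ndufa6 and Cox6a2 overlap between sham and TAC and the other 6 do not; Cox7a1 lies from 14.46 to 15.09 at 48 h and from 16.01 to 16.17 in the 3 wk sham arrays.

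Different probe sets of a gene mostly gave the same direction. Of 10 genes with several tested probe sets, 8 had every probe set below 0 at 3 wk, and 20 of 22 probe sets were below 0; the exceptions were a probe set each of Atp5d, at 0.01, and Atp5l, at 0.09. The second probe set of Ndufb2 was also called (-0.36, limma adjusted p = 0.0412), although the brighter one was not (-0.39, limma adjusted p = 0.262). The 50 genes read by plain probe sets had a median of -0.30 with 47 below 0, and the 19 read by probe sets with a suffix for shared or incomplete probes had -0.32 with 18 below 0. The 4 assembly factors had a median of -0.09 at 3 wk and none was called.

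Genes that work beside the respiratory chain were described from lists. Of 17 tested electron carriers and exchangers, 5 fell at 3 wk, where 1.89% of all genes were called lower. Etfb and Etfa, which carry electrons from fatty acid oxidation to ubiquinone, fell by 0.62 and 0.39 on the log2 scale (limma adjusted p = 0.00476 and 0.0159). Nnt, the proton-driven transhydrogenase, fell by 0.45, and Coq7 and Coq9, which act in ubiquinone synthesis, by 0.41 and 0.32. At 10 d, where 1.99% of all genes were called lower, 3 of 17 fell. These were Etfa by 0.43, Coq7 by 0.42 and Vdac3, a pore of the outer membrane, by 0.35. The adenine nucleotide carrier Slc25a4 and the mitochondrial creatine kinase Ckmt2, the brightest of the list, were not called at 3 wk, at -0.24 and -0.23.

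Of 12 assembly factors and inhibitors outside the prefixes, 1 fell at 10 d and none was called at 3 wk. Of all genes, 1.99% and 1.89% were called lower at these durations. Lrpprc, which stabilises mitochondrial messenger RNA, fell by 0.40 at 10 d. Of 14 transcriptional regulators, Hif1a, an oxygen-regulated factor, rose at 3 wk by 0.69 (limma adjusted p = 0.00357), where 2.93% of all genes were called higher. Ppargc1a, the coactivator of mitochondrial biogenesis, had -0.85 at 10 d and -0.92 at 3 wk and was not called (limma adjusted p = 0.14 and 0.0918), and its probe set was dim. Esrra, a nuclear receptor that works with it, had -0.26 and -0.17. None of 8 uncoupling and peroxide defence genes was called at any duration; the brightest, Sod1 and Prdx3, had -0.16 and -0.12 at 3 wk.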

How the data were processed

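The authors deposited 1 linear-scale intensity for each probe set of each array; per the array description files the chip is MG_U74Av2, and the summarising method and scaling are not given in the sources used here. Trimmed means (2% off each end) ran from 2501.81 to 2502.2, so arrays appear scaled to a common level. Array medians were 742.2 to 1031.35, and arrays of a group correlated at 0.922 to 0.961 across probe sets, which are not independent replicates. The number of arrays limits the precision. The deposited intensities were floored at the 20th percentile (167.9) and put on the log2 scale. Probe sets above the pooled median (880.1) in at least 4 arrays were kept, 66 controls left out, leaving 7297 of 12488. A gene was represented by its brightest tested probe set. limma 3.58.1 in R 4.3.3 fitted 6 group means to all 26 arrays (lmFit, eBayes with an intensity trend), and the script was tested on simulated data. Gene names came from the platform annotation given with the series, where 10 probe sets naming several genes were left out. Promoters came from RefSeq. The members and lists were chosen with earlier results of these data known. Named genes are those called, the most positive and most negative of each complex at 10 d and 3 wk and of all members at 48 h, and a list of isoforms and core subunits; Ndufb11, Sdhaf1, Atp5l and Ndufb2 were named after their values were seen. Alternatives covered scaling, floor, filter, model, scan day, replicate block, single arrays and the choice of probe set. The mitochondrial genome's transcripts were not analysed here.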

Additional observations from a re-analysis of the deposited data

Results flagged for a closer look

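In 15 of 228 sets (38 measures, namely 37 named genes and the member median, in 6 groups of 4 or 5 arrays), 1 array lay apart from the others by Dixon's criterion; chance gives about 1 in 20, or 11.4. TAC replicate 4 at 10 d, the array with its own scan day, held 3 of these: Cox7a2l at 13.74 (others 14.16 to 14.24), Ndufb3 at 15.08 (others 14.85 to 14.88) and Sdha at 12.92 (others 13.19 to 13.21). The called Sdha change at 10 d includes this array. TAC replicate 4 at 3 wk held 2, Ndufs1 at 15.00 (others 15.35 to 15.48) and Uqcrc2 at 15.63 (others 15.97 to 16.09), and TAC replicate 5 held Atp5g2 at 12.88 (others 12.52 to 12.62). Among the 3 wk sham arrays, replicate 4 held Atp5d at 13.80 (others 14.10 to 14.15) and Sdhd at 15.70 (others 16.02 to 16.05). Sham replicate 1 held Uqcrb at 16.34 (others 16.42 to 16.44) and the median over members, -0.05 relative to the sham mean (others 0.02 to 0.03). At 48 h, sham replicate 1 held Atp5o at 17.16 (others 16.58 to 16.68) and Ndufa1 at 8.95 (others 8.31 to 8.40). Sham replicate 3 held Ndufa6 at 13.50 (others 13.89 to 13.94), sham replicate 4 held Cox6c at 15.02 (others 15.55 to 15.63), and TAC replicate 4 held Sdha at 13.22 (others 13.62 to 13.74).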

How the results depend on the processing

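At 10 d the 1 called member became 6 after quantile normalization (2.28% of all genes called lower) and 4 after cyclic loess normalization (2.03%). It became 4 with array weights (4.83%) and 2 with only the groups compared (3.27%). It became 0 with median centring (1.19%), scan day as a block (1.46%) or the main scan day alone (1.53%). An unmoderated test with unequal variances also gave 0 (0.018%). Leaving out 1 array gave 0 to 3 members, with 0.881% to 2.37% of all genes called lower. At 3 wk the 6 called members became 3 without the filter (1.27% of all genes called lower) and 12 with a filter at the 70th percentile (3.43%). They became 0 with median centring (1.13%), scan day as a block (0.0359%), the main scan day alone (0.126%) or the unmoderated test (0.018%). Quantile normalization called 5 members at 3 wk (2.59% of all genes called lower), of which only Ndufa6 was among the 6 of the main model. Fitting only the groups compared called 6 members (0.575%), of which only Cox7a1 and Uqcrb were among the 6 of the main model. The calls of Atp5c1, Cox5b and Ndufab1 ended under both. Leaving out 1 array at 3 wk gave 0 to 11 members, with 0.791% to 2.53% of all genes called lower. It gave 0 without sham replicate 3 or TAC replicate 4 and 1 without sham replicate 2. The count was 2 without sham replicate 4 and 11 without TAC replicate 1. The 3 wk median over members, -0.31, was -0.18 after quantile and -0.20 after cyclic loess normalization. In the same order, complex I gave -0.20 and -0.20 and complex III -0.14 and -0.22; quantile normalization gave -0.14 for complex II, -0.26 for complex IV and -0.17 for complex V, and -0.29 for complex II at 10 d. At 10 d quantile normalization gave a member median of -0.13. Over all members, the sign at 3 wk was kept by 64 of 69 under median centring and under both scan day settings, and by 64 of the 68 tested after quantile normalization. Among the genes named by rule, it turned for 6 uncalled ones: Atp5mpl (0.04 quantile, 0.04 cyclic loess, 0.00 median centring, -0.10 to 0.03 leaving out 1 array, the latter without TAC replicate 4), Uqcr10 (0.01, 0.02 and 0.00 under the same 3 scalings), Ndufv1 (0.01 quantile), Cox7a2l (-0.04 with scan day as a block or the main day alone, -0.01 to 0.12 leaving out 1 array, the former without TAC replicate 5), Ndufb3 (-0.26 under both scan day settings, -0.04 to 0.25, the former without sham replicate 4) and Ndufa1 (-0.09 with a floor at the 40th percentile, -0.11 to 0.71, the former without sham replicate 3). The cause of these was not tested. Same-numbered arrays correlated at -0.131 to 0.0324 in their deviations from group means, so the numbers do not pair arrays. With the replicate block, 0, 1 and 7 members were called at 48 h, 10 d and 3 wk. Of all genes, 0.018%, 2.07% and 1.8% were called lower in the same order. The 3 wk median was then -0.32, and at 3 wk the block called Ndufs1 and Uqcr11 and did not call Ndufa6. Dim probe sets near the floor, such as those of Ndufa1 and Cox6b2, limit what their values can show.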
